A study of Mus musculus with 9 samples.

Results

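The TAM family is a group of receptor tyrosine kinases, Tyro3, Axl and Mertk, together with their secreted ligands Gas6 and protein S, the product of Pros1. The ligands bind phosphatidylserine on apoptotic cells with a domain rich in gamma-carboxyglutamate (Gla) and bind the receptor at their other end, so that a phagocyte can hold and engulf the dying cell. Vitamin K is needed to make the Gla domain. Mertk and Axl are the TAM receptors best known from macrophages. Protein S binds Mertk and Tyro3, while Gas6 binds all the receptors and is the ligand of Axl. The members described here were chosen by name, as the 5 genes of this family among the 19938 genes measured, and each was read by 1 probe set of its own.

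RNA of 3 sorted mouse cell populations was hybridised to Affymetrix gene arrays, with 3 arrays per population and 9 in all. Every mouse was CX3CR1 gfp+/-, so that 1 copy of the fractalkine receptor gene was replaced by the GFP reporter in all groups. T cell zone macrophages (TZM) came from lymph nodes and were sorted as GFP-high, MertK+, CD169 negative and CD11b+. Microglia came from the brain and were sorted as GFP-high, CD11b+ and CD45+, a gate that does not by itself separate microglia from other brain macrophages. CD8a+ dendritic cells (DC), the cross-presenting type, were sorted for CD8a and for high CD11c and MHC class II, and against CD64. Their sample fields give the lymph node as source and the sorting protocol gives the spleen. The labels call the arrays biological replicates and do not say whether animals were pooled. If replicates shared animals, p-values would measure only the spread between these samples. Age and sex were not among the labels used here. Because the TZM were sorted on MertK protein, the Mertk level of TZM is a description of the sort and not a finding.

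Levels are RMA values on the log2 scale, in which a step of 1 is a factor of 2. Array medians over genes ran from 4.90 to 5.02. A gene was called different where limma's Benjamini-Hochberg adjusted p was under 0.05 and the 2 group means lay at least 1 log2 unit apart. By these criteria 8.74% of genes were called between TZM and DC, 7.65% between TZM and microglia and 11.2% between microglia and DC. These 3 comparisons share arrays, and their values are set side by side without a count of agreement. The markers of the labelled cells were present, with 9 of 9 measured macrophage markers at 6 or more on all TZM and all microglia arrays, 8 of 8 microglia markers on all microglia arrays and 9 of 9 type 1 DC markers on all DC arrays. Mertk is 1 of these macrophage markers, and Cd8a 1 of the DC markers, so the sorts fixed them in TZM and in DC. Some markers were shared between populations. At 6 or more on all TZM arrays were also 5 microglia markers and 3 type 1 DC markers. On all DC arrays 2 macrophage and 2 microglia markers reached that level, and on all microglia arrays 3 type 1 DC markers. Markers of other cells were present in part. The log2 summed level of 5 salivary gland genes was 10.87 in TZM replicate 1, 12.44 in replicate 2, lowest in replicate 3 and at most 6.36 in the other populations. That of 4 neutrophil genes was 7.29, 10.36 and 8.73 in TZM replicates 1, 2 and 3, carried by S100a8 and S100a9, while Ly6g and Retnlg were at most 4.17 on these arrays. That of 5 measured T cell genes ran from 10.72 to 11.16 in TZM and from 6.99 to 7.98 elsewhere. Cd4 carried it, at 11.06, 10.59 and 10.83 in TZM, where Cd3d, Cd3g and Cd5 were at most 5.22. Cd3e was at 6.08, 5.97 and 6.38 in TZM and between 5.12 and 5.77 on the other arrays. Cd3d and Cd3g were also higher on every TZM array than on any other array, while Cd5 was highest in DC. In microglia replicates 1, 2 and 3, 3 choroid plexus genes summed to 12.17, 6.55 and 11.86, with Ttr alone at 12.15, 5.48 and 11.83, and 7 genes of border-associated macrophages to 10.52, 8.83 and 10.20. In bulk RNA, fewer cells that express a gene and less of its RNA per cell cannot be told apart.

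The family divided by population. Axl stood far above the other populations in TZM. Pros1 and Gas6 were highest in microglia, intermediate in TZM and lowest in DC. Mertk was high in both macrophage populations and at the bottom of the scale in DC, and Tyro3 was low everywhere. Between TZM and DC, 4 of the 5 genes were called, all higher in TZM and Mertk among them, where 4.71% of all genes were called higher and 4.03% lower. Between TZM and microglia, 1 was higher in TZM and 2 were lower, against 4.25% and 3.40% of all genes. Between microglia and DC, 3 were higher in microglia and 0 lower, against 5.15% and 6.01%. No TAM gene was called higher in DC than in either macrophage population.

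**Figure D1:**
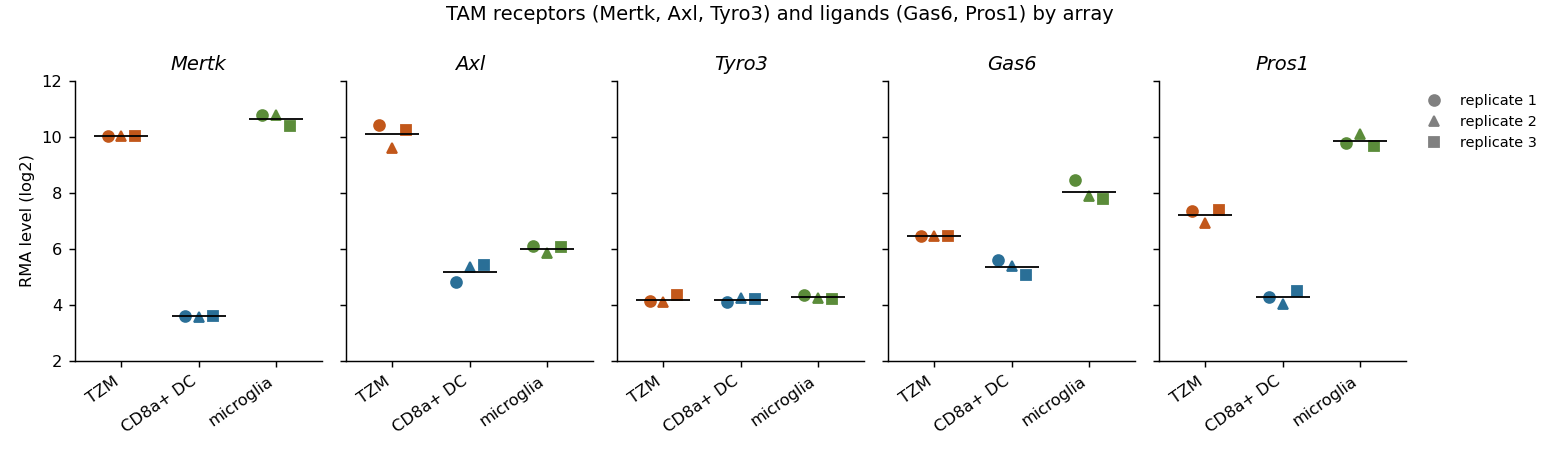
Level of each TAM receptor and ligand on every array (y axis, RMA log2), by population (x axis), with 1 symbol per replicate and a line at the mean of the 3 arrays. Axl is near 10 only in TZM, Pros1 and Gas6 step down from microglia to TZM to DC, and all 9 Tyro3 values lie between 4.09 and 4.35.

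Mertk (chromosome 2, positions 128698915 to 128803162 in GRCm38.p6) encodes the receptor kinase through which many tissue macrophages engulf apoptotic cells. Its levels were 10.02, 10.02 and 10.02 in TZM, 10.80, 10.78 and 10.38 in microglia, and 3.59, 3.58 and 3.62 in DC. The DC values lay below the array medians and the macrophage values far above them, with a gap of 6.41 between the lowest TZM and the highest DC array. In the comparison that did not involve the sort marker, Mertk was higher in microglia than in DC by 7.06 (SE 0.11, adjusted p = 2.4e-09). TZM were above DC by 6.43 (SE 0.11) and below microglia by a log2 fold change of -0.63 (SE 0.11). These last 2 values describe cells that were gated on MertK protein. The 3 TZM values had an SD of 0.0005, against a median SD of 0.12 over all genes in TZM, and 374 of 19938 genes had an SD as small or smaller. The SE comes from a spread pooled over all arrays and does not rest on these near-equal values alone.

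Axl (chromosome 7, 25756500 to 25788924) encodes a receptor kinase that depends on Gas6 as its ligand and is known to be induced by interferons. It was at 10.42, 9.62 and 10.25 in TZM, at 6.09, 5.87 and 6.06 in microglia and at 4.83, 5.34 and 5.41 in DC. Every TZM array was above every other array by at least 3.53. Axl was higher in TZM than in DC by 4.90 (SE 0.22, adjusted p = 1.1e-06). It was higher in TZM than in microglia by 4.09 (SE 0.22, adjusted p = 4.3e-06), a factor of 17.0 on the RMA scale. Microglia exceeded DC by 0.81 (SE 0.22, 95% interval 0.30 to 1.32, adjusted p = 0.027). The 3 arrays of each population did not overlap, which was so for 37.8% of all genes in this comparison. The difference of 0.81 did not reach the minimum fold change. Its adjusted p was 0.093 without DC replicate 1 (log2 fold change 0.63), 0.088 without microglia replicate 1 (0.77) and 0.080 without microglia replicate 3 (0.79). TZM replicate 2, the array with the highest salivary and neutrophil sums, had the lowest Axl of the TZM, and their part in it was not tested. Without it the differences were larger, at 5.14 against DC and 4.33 against microglia.

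Tyro3 (chromosome 2, 119797740 to 119818104) encodes the TAM receptor best known from neurons and other cells of the nervous system. It was at 4.13, 4.09 and 4.34 in TZM, at 4.11, 4.24 and 4.21 in DC and at 4.35, 4.24 and 4.21 in microglia. All 9 values were below the array medians and the populations overlapped. The log2 fold change was 0.00 between TZM and DC (95% interval -0.18 to 0.19, adjusted p = 0.99), -0.08 between TZM and microglia (-0.26 to 0.11, adjusted p = 0.62) and 0.08 between microglia and DC (-0.11 to 0.27, adjusted p = 0.58). No detection call was used, and at this level a difference in Tyro3 RNA would be understated. All 6 neuronal marker genes were below 6 on every array.

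Pros1 (chromosome 16, 62854307 to 62929346) encodes protein S, which is also a cofactor of the anticoagulant protein C. It was at 9.78, 10.10 and 9.67 in microglia, at 7.37, 6.92 and 7.40 in TZM and at 4.28, 4.05 and 4.49 in DC. The populations formed separate steps with no overlap. Of all genes, 32.2% did not overlap between TZM and DC, 30.5% between TZM and microglia and 37.8% between microglia and DC. Pros1 was higher in microglia than in DC by 5.58 (SE 0.17, adjusted p = 8.5e-08). The DC values lay below the array medians and were not shown to be above background, so differences from DC may be understated. TZM were above DC by 2.96 (SE 0.17, adjusted p = 4.9e-06). Against microglia TZM were lower, at -2.62 (SE 0.17, adjusted p = 1.3e-05). The highest microglia value was that of replicate 2, which had the lowest sums of choroid plexus and border-associated macrophage genes. The part of such RNA in the result was not tested. With replicate 2 as the only microglia array the difference between TZM and microglia was -2.87.

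Gas6 (chromosome 8, 13465374 to 13494535) encodes the ligand that activates Axl as well as the other TAM receptors. It was at 8.46, 7.88 and 7.78 in microglia, at 6.48, 6.48 and 6.45 in TZM and at 5.61, 5.40 and 5.07 in DC. The order was that of Pros1, again with no overlap, and the steps were smaller. In single comparisons, from 30.5% to 37.8% of all genes did not overlap. Gas6 was higher in microglia than in DC by 2.68 (SE 0.19, adjusted p = 1.2e-05) and lower in TZM than in microglia, at -1.57 (SE 0.19, adjusted p = 0.00051). TZM exceeded DC by 1.11 (SE 0.19, adjusted p = 0.0033). This last call sat at the minimum fold change, and without DC replicate 3 the value was 0.96. The highest microglia value came from replicate 1, which also had the highest sums of choroid plexus and border-associated macrophage genes. Replicate 3, with sums of 11.86 and 10.20, had the lowest value, and replicate 2, with 6.55 and 8.83, lay between. The part of such RNA in the result was not tested. With replicate 2 as the only microglia array the difference between TZM and microglia was -1.41.

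**Figure D2:**
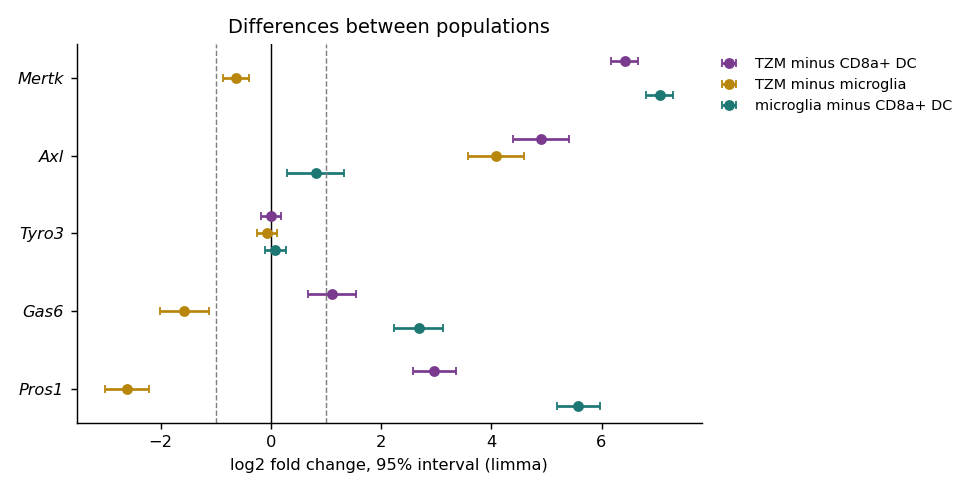
Log2 fold change (x axis) of each TAM gene (y axis) in the 3 comparisons, with 95% intervals from the limma fit over 9 arrays; dashed lines mark a fold change of 1 in either direction. Axl is the only member to the right of the upper dashed line for TZM minus microglia, at 4.09, while Pros1 and Gas6 lie left of the lower line at -2.62 and -1.57.

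The differences between populations were also compared between members. Within each array, the log2 value of Mertk was subtracted from that of Axl, and the result was compared between populations rather than read as a level. The Axl minus Mertk value was lower in microglia than in DC, with a difference of -6.24 (pooled SD 0.31, n = 3 and 3, exact two-sided permutation p = 0.1). It was higher in TZM than in microglia by 4.72 (pooled SD 0.37), which includes the sort marker and is given as a description. For the ligands, Gas6 minus Pros1 was lower in microglia than in DC (-2.90, pooled SD 0.45, exact permutation p = 0.1) and lower in TZM than in DC (-1.85, pooled SD 0.37, exact permutation p = 0.1). It was higher in TZM than in microglia by 1.05 (pooled SD 0.38, exact permutation p = 0.1). With 3 arrays against 3, 0.1 is the smallest p that the permutations can give, so none of these can reach 0.05. Mertk and Pros1 were below the array medians in DC, so the values against DC depend on levels not separated from background.

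The sequence before the annotated start of Mertk, Pros1 and Gas6, the members lowest in DC and highest in microglia, is shown from RefSeq (GRCm38.p6), which held an entry for 5 of 5 members. Each line gives the 250 bases before the start on the strand of the gene, 5′ to 3′. Capitals mark GC boxes, GGGCGG or its reverse complement, the letters bound by factors of the Sp family.
Mertk, chr2:128698665-128698914, plus strand: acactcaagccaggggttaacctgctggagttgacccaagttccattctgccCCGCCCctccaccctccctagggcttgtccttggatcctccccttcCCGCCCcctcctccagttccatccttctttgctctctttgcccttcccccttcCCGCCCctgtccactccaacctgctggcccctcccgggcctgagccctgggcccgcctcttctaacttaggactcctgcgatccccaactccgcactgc
Pros1, chr16:62854057-62854306, plus strand: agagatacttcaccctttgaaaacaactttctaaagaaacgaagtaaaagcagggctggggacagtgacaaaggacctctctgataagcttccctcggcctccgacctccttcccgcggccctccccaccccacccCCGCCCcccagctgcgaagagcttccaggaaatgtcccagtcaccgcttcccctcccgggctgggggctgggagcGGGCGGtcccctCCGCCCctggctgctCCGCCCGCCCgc
Gas6, chr8:13494536-13494785, minus strand: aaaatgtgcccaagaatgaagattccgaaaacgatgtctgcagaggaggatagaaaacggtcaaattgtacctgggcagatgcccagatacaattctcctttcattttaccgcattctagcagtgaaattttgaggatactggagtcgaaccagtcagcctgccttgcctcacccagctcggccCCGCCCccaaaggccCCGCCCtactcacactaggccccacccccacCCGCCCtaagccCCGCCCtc

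Mertk had 3 GC boxes in this window, Pros1 5, of which the last pair overlaps, and Gas6 4. The window of Axl runs into the transcribed stretch of a longer annotated form and ends inside it. Only the 30 bases next to the start used here are shown, with the 1 GC box in capitals.
Axl, chr7:25788734-25788763, minus strand: cccaaggctggggccctagtGGGCGGaggc
Tyro3, which was low in all populations, had 3 GC boxes in its window. That window lies wholly inside the annotated gene, before a start 1774 bases from its outer end. A GC box was present, on either strand, in 32.7% of the 32851 windows of this length in the table. The match describes these windows and sets no member apart by its pattern. The core of the interferon-stimulated response element (2.98% of windows), the AP-1 letters TGANTCA (6.75%), the TATA box TATAAA (12.4%), the E-box CACGTG (6.02%) and the direct-repeat LXR element (0.0152%) matched none of the 5 windows. The PU.1 core GAGGAA (23.3%) matched Axl alone. The absence of a match says only that these letters are not in this window.

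Genes with a pattern like that of each member were sought by the root mean square difference of gene-centred log2 values over the 9 arrays, among 7392 genes. These were left of the 7678 at 6 or more in at least 3 arrays once the member itself, predicted genes, clones, small RNAs, pseudogenes, olfactory receptors and antigen receptor segments were passed over. Nearest to Mertk was Csf1r (0.26), which encodes the CSF1 receptor of macrophages, followed by the complement gene C1qc (0.35) and the cytokine gene Il1a (0.43). The level of Csf1r was 12.16 ± 0.03 (SD, n = 3) in microglia, 11.22 ± 0.09 in TZM and 5.21 ± 0.33 in DC. Axl was nearest to Fam20c, a kinase of the secretory pathway (0.23), to the protease inhibitor gene Cst7 (0.26) and to Epb41l3, which encodes a protein of the membrane skeleton (0.32). Cst7 reached 10.49 ± 0.44 in TZM, 5.98 ± 0.25 in microglia and 5.11 ± 0.29 in DC. Pros1 was nearest to Csf3r, the receptor for the growth factor G-CSF (0.25), to the transporter gene Abca9 (0.28) and to Fcgr1 (0.30), which encodes CD64, the protein whose absence defined the DC gate. Gas6 was nearest to Frmd4a (0.20), the carotenoid-cleaving enzyme gene Bco2 (0.21) and the cytoskeletal linker gene Macf1 (0.22). The span between the highest and lowest group mean of Tyro3 was under 1, and no genes were sought for it.

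**Figure D3:**
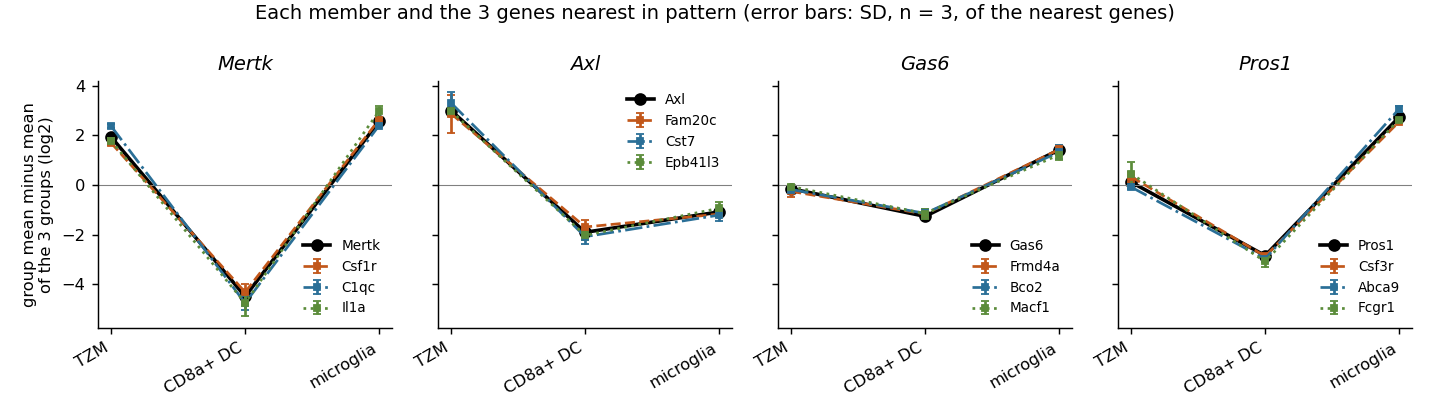
Group means minus the mean of the 3 groups (y axis, log2) by population (x axis) for Mertk, Axl, Gas6 and Pros1 in black and for the 3 genes nearest in pattern to each in colour, with error bars of 1 SD (n = 3) for the latter. The Axl panel peaks in TZM, and the panels of Mertk, Gas6 and Pros1 have their lowest point in DC and their highest in microglia.

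Genes around the pathway were taken from 9 lists by role. Of 84 measured genes, 14 were higher and 8 lower in TZM than in DC, 10 higher and 7 lower in TZM than in microglia, and 13 higher and 8 lower in microglia than in DC. That is 26.2%, 20.2% and 25.0% called, against 8.74%, 7.65% and 11.2% of all genes. Of the 84 list genes 56 were at 6 or more in at least 3 arrays, and of all genes at that level 19.7%, 17.3% and 25.6% were called, so neither background matches the lists in level. The medians of the 84 genes were 0.08, 0.05 and 0.04, against 0.02, 0.01 and 0.01 over all genes.

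Regulators of receptor transcription had the most genes called higher in TZM than in DC among the 9 lists. The lists were chosen with earlier results of these data known and differ in size and level, so this does not rank them. All measured regulators were at 6 or more in at least 3 arrays. Of all genes at that level, 19.7% were called in either direction between TZM and DC and 17.3% between TZM and microglia. Of 8 measured, 4 were higher in TZM than in DC and 0 lower, with a median of 0.70, and 3 were higher than in microglia and 0 lower, with a median of -0.14. Nr1h3, the oxysterol receptor LXR alpha, had a level of 9.09 ± 0.28 (SD, n = 3) in TZM against 4.32 ± 0.21 in DC and 4.27 ± 0.12 in microglia. Its partner Rxra was higher in TZM by 2.53 against DC (adjusted p = 3.2e-05) and by 1.79 against microglia (adjusted p = 0.00031). The fatty acid receptor gene Pparg was higher by 1.45 and 2.37. Ppard was higher than in DC by 1.01 in TZM and 1.14 in microglia, the former under the minimum fold without TZM replicate 1 (0.96), with median centring (0.96) and with quantile normalization (0.95).

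For the ligands, RNA of genes that act in or on the making of the Gla domain was measured. Of 6 genes of the vitamin K cycle and Gla protein processing, 3 were higher in microglia than in DC, 1 was higher and 1 lower in TZM than in DC, and 0 differed by the criteria between TZM and microglia. Ggcx, the gamma-carboxylase itself, was at 7.03 ± 0.24 in microglia, 6.14 ± 0.18 in TZM and 5.64 ± 0.29 in DC, and was called only between microglia and DC (1.39, adjusted p = 0.00042). Vkorc1, which regenerates vitamin K, was higher than in DC by 2.11 in TZM and 1.81 in microglia, while its paralogue Vkorc1l1 was lower in TZM than in DC, at -1.11 (adjusted p = 0.00013). Calu, an inhibitor of the carboxylation, was higher in microglia than in DC by 1.07, and by 0.92 without DC replicate 2. None of the 12 measured other Gla proteins passed the level of 6 in 3 arrays. Mgp (5.62 ± 1.0) and F9 (4.78 ± 0.22) were called higher in microglia than in the other populations. Against DC the Mgp call was lost without DC replicate 1 (adjusted p = 0.057), DC replicate 3 (0.052) or microglia replicate 3 (0.061). Against TZM it was lost without TZM replicate 3 (0.061), without microglia replicate 3 (0.07) and with only the compared groups in the fit (0.069). With replicate 2 as the only microglia array Mgp stood only 0.55 above DC. Mgp was at 6.43, 4.51 and 5.93 in microglia replicates 1, 2 and 3, the order of their choroid plexus sums, and the part of choroid plexus RNA was not tested.

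Of 7 partners of protein S in coagulation, 0 were called between TZM and DC, and 1 was without DC replicate 2 or without DC replicate 3. Procr, the protein C receptor, was at 7.74 ± 0.16 in DC, 7.01 ± 0.37 in TZM and 5.38 ± 0.07 in microglia, and was higher in TZM than in microglia by 1.63 (adjusted p = 0.00022). Tfpi, an inhibitor of coagulation that binds protein S, was higher in microglia than in DC by 1.86 (adjusted p = 1.6e-05). Between TZM and DC its log2 fold change was 0.98 (adjusted p = 0.0011), just under the minimum, with equal values of 5.82 on the 3 TZM arrays. Of 3 other reported TAM ligands, Lgals3, which encodes galectin-3, stood at 10.47 ± 0.09 in TZM and 10.17 ± 0.05 in DC but 6.07 ± 0.12 in microglia. It was higher in TZM than in microglia by 4.40 (adjusted p = 1.3e-08), in the direction opposite to Gas6 and Pros1. Tub and Tulp1 were not called.

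The exposure of phosphatidylserine, the signal that the ligands read, is set by scramblases and flippases. Of 11 such genes, 2 were higher and 1 lower in TZM than in DC, and 3 higher and 1 lower in TZM than in microglia. The scramblase gene Ano6 was higher in TZM by 1.54 against DC and 1.55 against microglia. The flippase gene Atp11a was higher by 1.34 and 2.29. Another flippase gene, Atp8a2, was at 8.74 ± 0.14 in microglia, 4.10 ± 0.09 in TZM and 4.18 ± 0.03 in DC. Plscr1 was lower in TZM than in DC, at -1.18, and higher than in microglia by 1.19. The former was -0.92 with the mean of its probe sets, under the minimum fold.

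Shedding of the receptors releases soluble Mertk and Axl and ends signalling at the surface. Of 7 genes for shedding and turnover, 3 were higher and 1 lower in TZM than in DC. The protease gene Adam17, whose product cleaves Mertk, was at 9.76 ± 0.14 in TZM, 9.33 ± 0.04 in microglia and 8.66 ± 0.04 in DC, and was higher in TZM than in DC by 1.09 (adjusted p = 1.6e-05). Rhbdf2, which helps Adam17 to mature, was higher in TZM by 1.25 against DC and 1.17 against microglia. With replicate 2 as the only microglia array the latter had an adjusted p of 0.087. Adam10, whose product sheds Axl, was at 9.14 ± 0.14 in microglia, 8.07 ± 0.06 in TZM and 7.02 ± 0.28 in DC. Its calls between TZM and each other population were near the minimum fold, at 1.05 and -1.07, and were lost without DC replicate 2 (0.92) and without microglia replicate 3 (-0.99). The former was also lost with median centring. Cblb, a ubiquitin ligase reported to act on TAM receptors in NK cells, was lower than in DC in TZM (-2.38, adjusted p = 9.2e-06) and in microglia (-2.29, adjusted p = 8.6e-06).

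Downstream of the receptors, 2 of 22 measured signalling genes were higher and 4 lower in TZM than in DC, 1 higher and 2 lower in TZM than in microglia, and 2 higher and 3 lower in microglia than in DC. The medians were -0.09, 0.05 and 0.10, against 0.02, 0.01 and 0.01 over all genes. Dock1, an activator of Rac in engulfment, was at 7.35 ± 0.27 in TZM, 6.39 ± 0.19 in microglia and 4.22 ± 0.08 in DC, and was higher in TZM than in DC by 3.13 (adjusted p = 1.4e-06). Its partner Elmo1 was lower in TZM than in microglia, at -1.83, and was not called between TZM and DC (-0.53). Vav3 was lower than in DC in TZM (-3.18) and in microglia (-3.44). The phosphoinositide kinase gene Pik3cb and the adaptor gene Nck2 were also lower in TZM than in DC, at -1.26 and -1.27. The phospholipase gene Plcg1 was lower in TZM by -1.07 against DC and -1.67 against microglia. Src was higher in TZM than in DC by 1.18 and than in microglia by 1.02, the latter lost without TZM replicate 1 (0.93), without microglia replicate 2 (0.90), with median centring and with quantile normalization (0.99).

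TAM receptors are known to act with the interferon receptor to induce the Socs inhibitors. Of 8 measured genes of this list, 2 were higher and 1 lower in TZM than in DC, and 0 were higher and 1 lower in TZM than in microglia. Socs3 was at 9.47 ± 0.06 in microglia, 7.92 ± 0.29 in TZM and 6.45 ± 0.15 in DC, the order of Pros1 and Gas6. Adam10, Ggcx and Tfpi of other lists had the same order of group means, and a link to the ligands was not tested. Each Socs3 step was called (1.46 between TZM and DC, adjusted p = 0.00012, and -1.55 between TZM and microglia, adjusted p = 0.00010). Socs1 was not called in any comparison. Ifnar2, a chain of the interferon receptor, was higher in TZM than in DC by 1.35 (adjusted p = 8.4e-06) and in microglia than in DC by 1.01, which was under the minimum without DC replicate 3 (0.95), without microglia replicate 3 (0.99), with median centring (0.98) and with replicate 2 as the only microglia array (0.97). The kinase gene Tyk2 was lower than in DC in TZM (-1.39) and in microglia (-1.48).

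**Figure D4:**
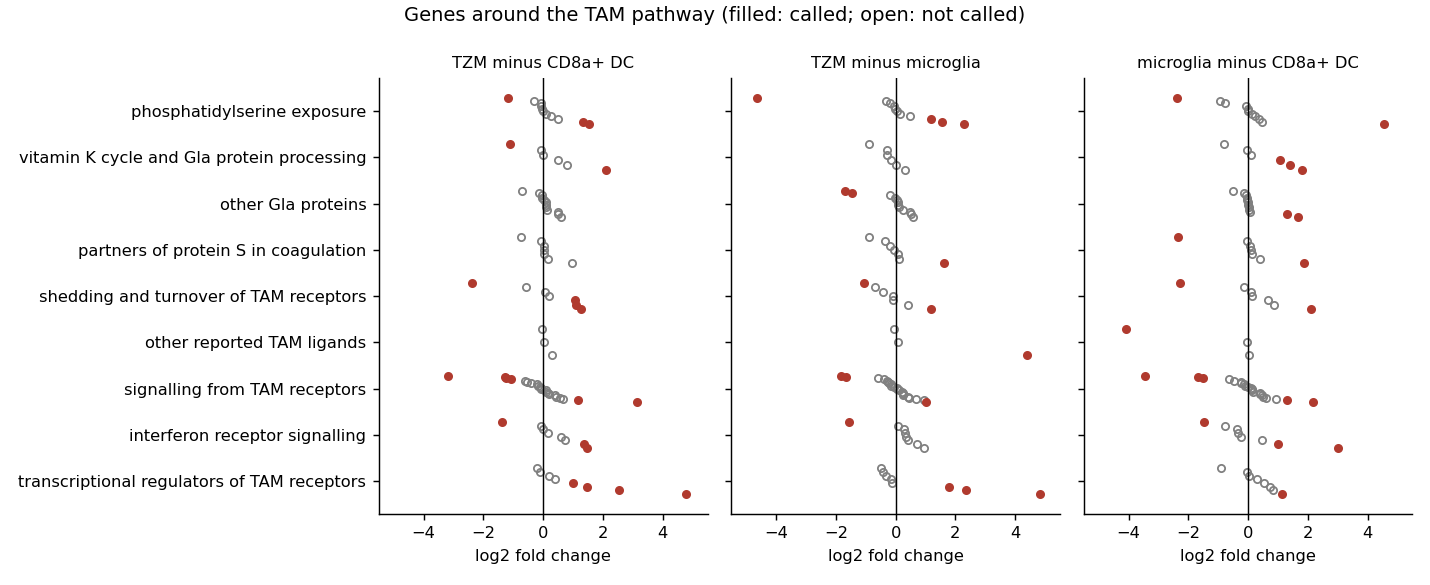
Log2 fold change (x axis) of the measured genes of 9 lists around the TAM pathway (rows), in 1 panel per comparison, with filled points for called genes and open points for the others. Nr1h3 lies farthest right among the regulators for TZM minus DC (4.77) and TZM minus microglia (4.82), and Lgals3 and Atp8a2 change sides between the latter and microglia minus DC.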

How the data were processed

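Expression in 3 sorted mouse populations was measured on Affymetrix gene arrays, with 9 arrays in all. The deposited values are log2 expression levels of 35556 probe sets, made by the authors with Affymetrix Expression Console 1.3.1 and RMA, per the submitters' processing notes. RMA subtracts background, brings the arrays to 1 distribution and condenses each probe set to 1 value. The arrays carry no detection calls here, so low levels are not separated from background. In the platform annotation 21789 probe sets had 1 symbol, 1621 had several and 12146 had none. Of the first, 21698 were matched to RefSeq (GRCm38.p6). The brightest probe set was kept per gene, which left 19938 genes.

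All 9 arrays entered 1 fit of limma 3.58.1 in R 4.3.3 with group as the only term, which was tested on simulated data. p-values were adjusted over all genes (Benjamini-Hochberg). Named genes were the members, up to 4 called genes per list and comparison, and the 3 genes nearest in pattern to each member. Predicted genes and clones were passed over. A few others are named as list members or markers, after their values were seen. The members and lists were chosen with earlier results of these data known. Marker sums are log2 of summed linear levels. Alternatives concerned the minimum fold, the level filter, normalization, probe sets, the fit, the replicate block and each array left out. The number of arrays limits the precision.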

Additional observations from a re-analysis of the deposited data

How the results depend on the processing

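Values for Axl, Gas6 and Pros1 kept their direction under every alternative run, and the results for Tyro3 between TZM and DC did not. Tyro3 stood at 0.00 there and was -0.05 with median centring, -0.04 with quantile normalization and -0.01 with array weights, and from -0.07 to 0.05 with an array left out. With an array left out, Gas6 between TZM and DC ran from 0.96 to 1.24, and the lowest value, without DC replicate 3, was under the minimum fold. With no minimum fold change, Mertk between TZM and microglia (-0.63) and Axl between microglia and DC (0.81) were called, and the genes called over the array numbered 4025 between TZM and DC, 3873 between TZM and microglia and 5006 between microglia and DC, against 1743, 1526 and 2224. With every probe set tested they numbered 2333 between TZM and microglia and 3440 between microglia and DC. Deviations of same-numbered arrays from their group means correlated from -0.145 to 0.128. With 3 arrays per group this cannot settle whether replicate numbers pair the arrays. The replicate block left Axl at 4.90 and Pros1 at 2.96 between TZM and DC, with 1732 genes called, and changed no call of a member. The setting with replicate 2 as the only microglia array was chosen after seeing the data and changed no call of a member. There Axl between microglia and DC had an adjusted p of 0.31, and with 1 array left out its adjusted p ran from 0.0058 to 0.093.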

Other observations

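Exact equality between arrays was common in the deposited values. At 4 decimals, 51.7% of all genes held the same value on at least 2 of the 9 arrays, 69.0% of genes under the level filter and 24.1% of those at 6 or more in at least 3 arrays. Mertk had 8 distinct values among 9 and Tyro3 had 7, while Axl, Gas6 and Pros1 had 9 each. The SD of 0.0005 of Mertk in TZM includes 1 such pair of equal values.

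Cdh5, a cadherin used as an endothelial marker, was at 7.54, 7.66 and 7.75 in TZM and between 5.15 and 5.49 on the other arrays. Pecam1 of the same list was between 6.40 and 6.96 on all arrays, while Kdr, Cldn5, Tie1, Esam and Egfl7 were below 6 on all of them. Slc1a3, a glutamate transporter listed as an astrocyte marker, was at 8.35, 7.80 and 8.24 in TZM and at 7.22, 7.22 and 7.45 in microglia. Gfap, Aqp4 and Gja1 of that list were at most 3.94 on all arrays, and Aldoc was highest in DC, at 6.45, 5.28 and 6.02. Ms4a7, listed for border-associated macrophages, was at 10.70, 10.61 and 10.22 in TZM and at 6.80, 4.37 and 6.63 in microglia replicates 1, 2 and 3.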
